A study of Mus musculus with 14 samples.

Results

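The matrix metalloproteinases and their tissue inhibitors were followed here in SCp2, an epithelial cell line from mouse mammary gland. The members were the 22 Affymetrix probe sets whose platform annotation names only 1 of 10 genes, out of 45037 probe sets that are not controls and 18193 named genes. Of the 10 genes, 7 encode proteases (Mmp2, Mmp3, Mmp9, Mmp10, Mmp12, Mmp13 and Mmp14) and 3 encode inhibitors (Timp1, Timp2 and Timp3). Timp2 had 6 probe sets, Timp3 4, Mmp14 3, Mmp2 and Mmp9 2 each, and the other 5 genes 1 each.

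Matrix metalloproteinases are zinc enzymes, secreted or held at the cell surface, that cut collagens, laminins, fibronectin and surface proteins. Most are made as inactive proenzymes. TIMPs bind the active enzymes and block them, and TIMP-2 has a further role, since it links the membrane protease MMP-14 to proMMP-2 at the cell surface, where MMP-2 is then activated. In the mammary gland these proteases take part in branching and in the loss of the alveoli after weaning, and MMP-3, also called stromelysin-1, is known for changing the shape and junctions of mammary epithelial cells in culture.

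RNA came from 14 dishes, 1 array each. In experiment A the control dishes and the dishes treated with MMP-3 were plated at 50K, 100K and 250K cells per 35 mm dish, and experiment B had the same design with 25K added, so that A held 6 arrays and B 8. All dishes shared the cell line, DMEM with 2% fetal calf serum and 3 days of culture, and the labels give neither the dose nor the source of the MMP-3 protein. Each agent and density was measured once per experiment, and nothing in the labels says how the dishes of an experiment were related. Within an experiment the p-values rest on how far the dishes lay from a straight line on log2 density for each agent. That distance mixes any curvature with the spread between dishes, which was not measured apart. All cells came from 1 line, so the arrays hold no spread between animals.

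On the log2 scale used here, each probe set has its median over the 14 arrays at 0. The values show differences between arrays and hold no level, so the genes of the family cannot be ranked by abundance and the presence of an epithelial marker cannot be read from them. In bulk RNA, fewer cells of a type and less RNA per cell cannot be told apart. The number of arrays limits the precision.

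The interferon-induced gene Ifit1 did not follow the labels of experiment B as it did those of A. It lay between -2.98 and -2.91 on the 3 control arrays of experiment A and between 2.83 and 4.21 on the MMP3 arrays. Of the control arrays of B, 50K (3.71) and 250K (4.26) were as high as the MMP3 arrays of A. Of the MMP3 arrays of B, 25K (-2.83) and 100K (-2.97) were as low as the controls of A. By the direction seen in A, these 4 arrays go against their label. The MMP3 differences in B and over all arrays are given with and without them for 1 probe set per varying gene. The array labelled MMP3 100K of B also had the widest spread over all probe sets, with an SD of 0.869 against 0.232 to 0.412 on the other 13.

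The 22 probe sets fell into 2 kinds. For 7 of them the SD over the 14 arrays lay between 0.0115 and 0.0392, below the 40th percentile of all probe sets (0.049), and these were shown but not tested. They were the probe sets of Mmp3, Mmp9, Mmp10, Mmp12 and Mmp13 and 1 probe set of Timp2 (1437081_at). The other 15, of Mmp2, Mmp14, Timp1, Timp2 and Timp3, had SDs from 0.302 to 1.65, and the lowest of them was already at the 68.7th percentile. The members nearest the limit on either side were thus Mmp3 (0.0392) and the Mmp14 probe set 1416572_at (0.302).

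**Figure D1:**
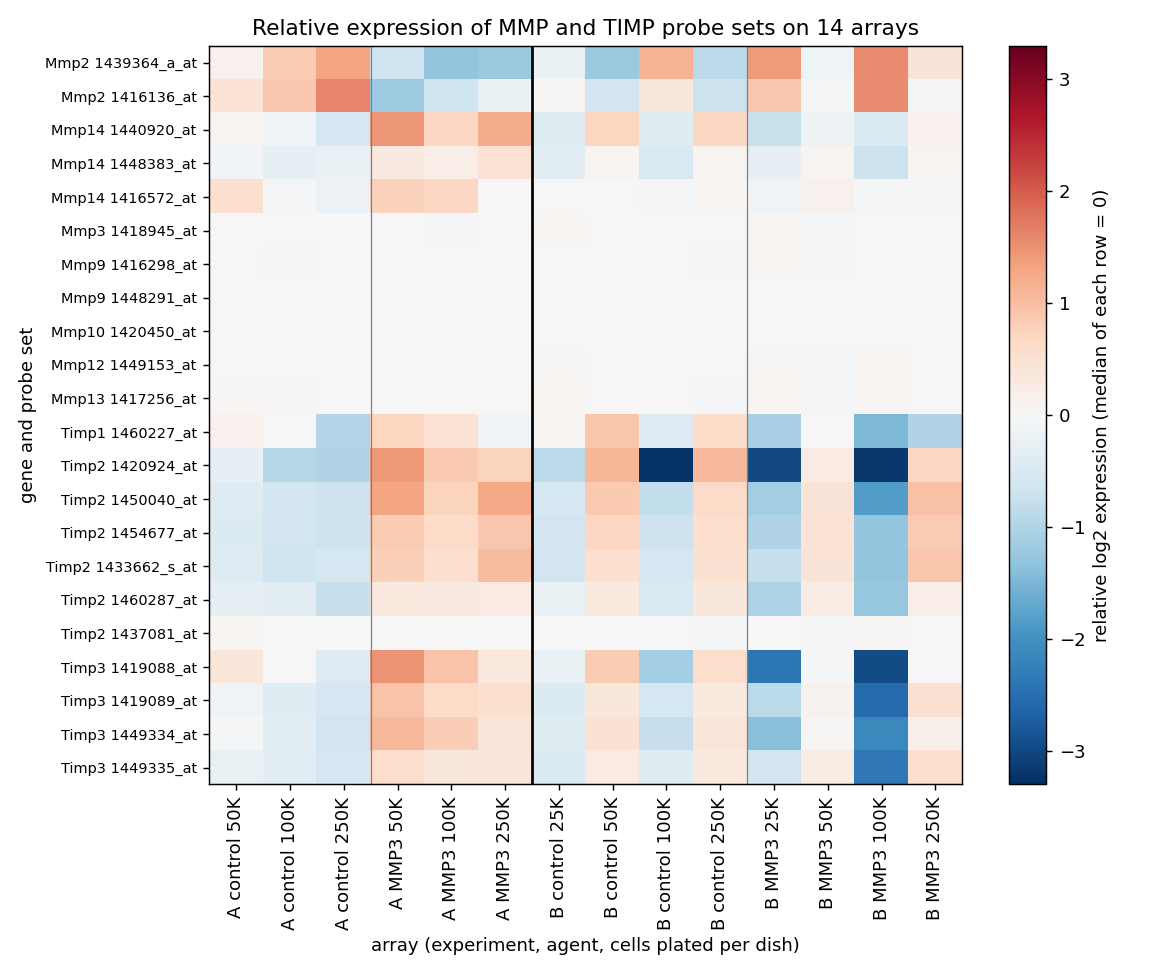
Relative log2 expression (colour, with the median of each row at 0) of the 22 probe sets on the 14 arrays, ordered by experiment, agent and cells plated. The rows of Mmp3, Mmp9, Mmp10, Mmp12 and Mmp13 stay near 0 throughout, and in experiment A the MMP3 array of each density is higher than its control for the 5 varying Timp2 and 4 Timp3 rows and lower for both Mmp2 rows.

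Mmp3, the gene of the protease that was added, barely varied. Its probe set ran from -0.068 on the MMP3 100K array of experiment A to 0.096 on the MMP3 25K array of B, a 1.12-fold range over all 14 arrays. On the 3 MMP3 arrays of A it was -0.0070, -0.068 and -0.0060, and on the controls 0.0195, 0.0100 and 0.0027 (50K, 100K and 250K in each case). In B the control arrays ran from -0.0127 to 0.068 and the MMP3 arrays from -0.028 to 0.096, which overlapped. The array reads the cells' own transcript, and protein added to the medium is not measured by it.

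Mmp10, the stromelysin most like MMP-3, had a whole range of 0.045. Mmp9, the gelatinase B gene, had ranges of 0.092 (1416298_at) and 0.038 (1448291_at). The range was 0.089 for Mmp12, the macrophage elastase gene, and 0.114 for Mmp13, the collagenase-3 gene. Part of this small spread was shared by the whole array. The median of all probe sets ran from -0.024 on the array labelled MMP3 50K of B to 0.030 on that labelled MMP3 100K of B, and Mmp10 was never further than 0.0100 from the median of its own array. The largest distance among the 7 was 0.083, for Mmp3 on the MMP3 25K array of B. The Timp2 probe set 1437081_at was as flat, with a range of 0.121, while the other 5 probe sets of the same gene varied widely. By density, Mmp13 in A was at 0.030, 0.029 and -0.0010 on the control arrays and -0.0057, 0.0010 and -0.022 on the MMP3 arrays, and in B at 0.070, -0.0013, 0.0091 and -0.034 on the control arrays and 0.057, -0.042, 0.072 and -0.011 on the MMP3 arrays. It was highest on the control 25K and MMP3 100K arrays of B. Mmp9 on 1416298_at was at 0.025, 0.027 and -0.00027 on the control arrays and -0.0077, 0.00027 and -0.0032 on the MMP3 arrays in A and at 0.015, -0.0017, 0.0084 and -0.031 on the control arrays and 0.053, -0.039, 0.0082 and -0.016 on the MMP3 arrays in B. Values this close to 0 cannot tell a transcript below background from one that did not change.

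**Figure D2:**
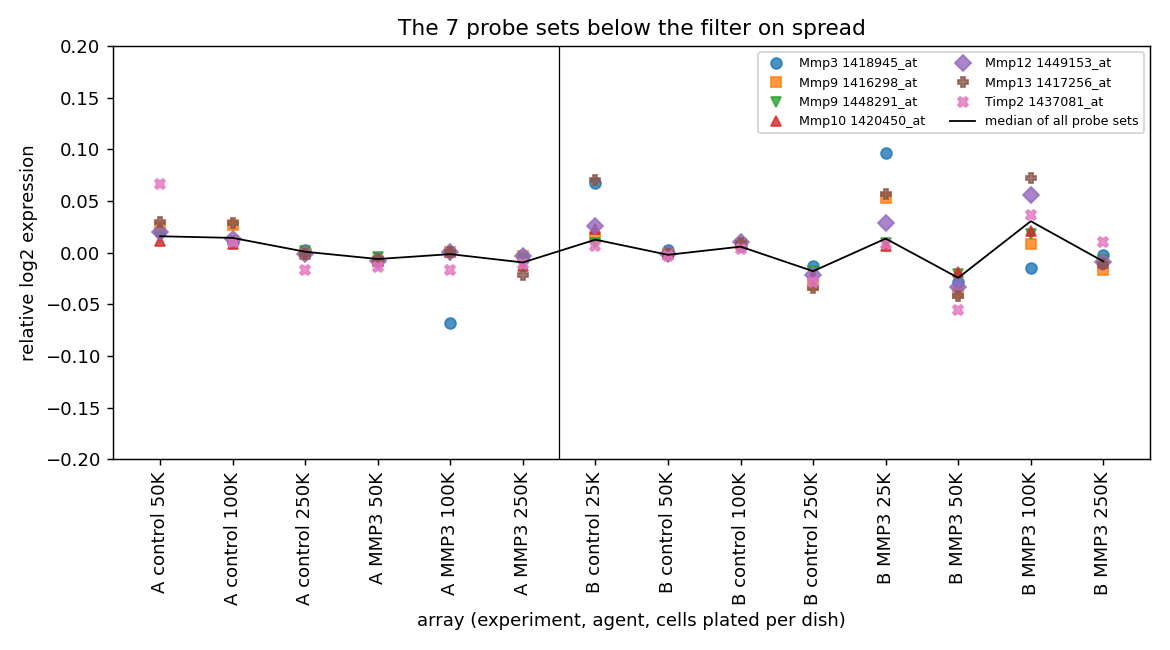
Relative log2 expression of the 7 probe sets below the filter on each array with the median of all probe sets as a line. The largest distance is 0.083 for Mmp3 on the MMP3 25K array of experiment B.

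Mmp3, Mmp10, Mmp12 and Mmp13 lie close together on chromosome 9 in RefSeq, in a run of MMP genes in which Mmp13 is followed by Mmp12, and Mmp3 has Mmp1b and Mmp1a as its neighbours. Their upstream sequences are shown because all 4 genes belong to the kind that barely varied and share 1 motif. The 100 bases before the annotated start are given 5′ to 3′ from RefSeq, build GRCm38.p6, with matches to the AP-1 motif TGANTCA in capitals (its reverse complement is the same pattern, so 1 search covers both strands).
Mmp3 (chr9:7445722-7445821, plus strand): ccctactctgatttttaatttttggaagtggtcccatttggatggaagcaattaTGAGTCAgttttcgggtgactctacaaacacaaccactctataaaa
Mmp10 (chr9:7502242-7502341, plus strand): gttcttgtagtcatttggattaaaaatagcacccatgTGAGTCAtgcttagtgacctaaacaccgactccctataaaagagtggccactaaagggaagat
Mmp12 (chr9:7347274-7347373, plus strand): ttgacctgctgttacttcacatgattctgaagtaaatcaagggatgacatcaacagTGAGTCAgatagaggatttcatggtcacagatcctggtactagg
Mmp13 (chr9:7272414-7272513, plus strand): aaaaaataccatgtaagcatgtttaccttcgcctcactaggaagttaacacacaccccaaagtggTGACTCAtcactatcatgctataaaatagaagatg
Each has 1 match, whose first base relative to the start is at -46 in Mmp3, -63 in Mmp10, -44 in Mmp12 and -35 in Mmp13. Mmp12 has a second annotated start, and the 250 bases before that one hold no match. Of all 32851 promoters in the table, 6.75% hold the motif in the 250 bases before the start and 2.73% in the 100 bases. AP-1 is the Fos and Jun factor pair, long known from MMP promoters. A match is a description of these letters and not a site, and whether the letters bear on how far a gene varied was not tested.

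The upstream sequences of genes that did vary are given next, again as the 100 bases before the start. Here the GC box GGGCGG or its reverse complement CCGCCC is in capitals.
Mmp14 (chr14:54431498-54431597, plus strand): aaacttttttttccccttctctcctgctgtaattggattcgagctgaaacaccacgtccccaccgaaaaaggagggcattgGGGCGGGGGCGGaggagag
Timp1 (chrX:20870066-20870165, plus strand): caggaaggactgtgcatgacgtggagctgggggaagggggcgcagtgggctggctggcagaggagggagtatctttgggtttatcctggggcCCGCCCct
Timp2 (chr11:118355412-118355511, minus strand): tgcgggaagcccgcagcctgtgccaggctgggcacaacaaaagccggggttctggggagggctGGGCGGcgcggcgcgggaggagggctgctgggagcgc
Timp3 (chr10:86300312-86300411, plus strand): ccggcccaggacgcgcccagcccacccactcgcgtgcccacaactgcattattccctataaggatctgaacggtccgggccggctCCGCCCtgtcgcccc
None of these 4 holds TGANTCA in the 250 bases before the start. Mmp14 has 2 GC box matches and Timp1, Timp2 and Timp3 have 1 each. Of all promoters, 32.7% have at least 1 in the 250 bases and 24.7% in the 100 bases. No entry was used for Mmp2 or Mmp9, so 8 of the 10 genes are covered.

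For experiment A, the direction of Ifit1 was read from its own arrays, so Ifit1 is no separate check of its labels. In A, Timp2 and Timp3 were higher with MMP3 and Mmp2 was lower. Mmp14 was higher on all 3 of its probe sets, of which 1 passed at adjusted p under 0.05 (limma). Of the 15 tested probe sets 10 rose and 2 fell at adjusted p under 0.05 (limma, Benjamini-Hochberg over 27022 probe sets). Over all tested probe sets 11% rose and 8.91% fell in this comparison, 19.9% in all. The median difference of the 27022 was -0.026. The 15 probe sets belong to 5 genes, and those of 1 gene are not separate readings, here and in the counts below. With the probe set of largest SD for each gene, 2 of the 5 were called higher and 1 lower. Over all genes so represented, 13.8% were higher and 9.67% lower.

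Timp2, the inhibitor that also serves MMP-2 activation, was higher on all 5 of its varying probe sets. On 1420924_at the controls were at -0.27, -0.95 and -0.99 and the MMP3 arrays at 1.42, 0.86 and 0.73 (50K, 100K and 250K). The groups did not overlap, and every MMP3 array lay above the control of its density. The controls had a mean of -0.74 ± 0.40 (SD, n = 3), and the difference was 1.74 on the log2 scale (SE 0.17, adjusted p = 0.0207, limma) or 3.34-fold. The differences were 1.67 on 1450040_at, 1.37 on 1454677_at, 1.34 on 1433662_s_at and 0.77 on 1460287_at, with adjusted p from 0.0162 to 0.0273 (limma). In order of density, 1450040_at was at -0.43, -0.62 and -0.69 on the control arrays and 1.29, 0.72 and 1.27 on the MMP3 arrays. On 1454677_at the values were -0.45, -0.62 and -0.68 on the control arrays and 0.84, 0.62 and 0.88 on the MMP3 arrays. Control and MMP3 arrays were apart on both. On 1433662_s_at they were -0.43, -0.65 and -0.58 on the control arrays and 0.79, 0.54 and 1.04 on the MMP3 arrays. On 1460287_at, the probe set with the smallest difference, they were -0.31, -0.34 and -0.75 on the control arrays and 0.32, 0.31 and 0.28 on the MMP3 arrays, and here too the groups were apart. The size differed between probe sets of this 1 gene, from 1.70-fold to 3.34-fold. Their patterns were alike, with pairwise r of 0.873 to 0.992 over the 14 arrays.

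Timp3, an inhibitor that stays bound to the matrix, was higher on all 4 probe sets. On 1419088_at the controls were at 0.41, 0.0115 and -0.44 and the MMP3 arrays at 1.48, 0.94 and 0.34. These groups overlapped between a low-density control and the densest MMP3 dish, yet within each density MMP3 was higher. That probe set rose by 0.93 (SE 0.05, adjusted p = 0.0145, limma). The other 3 did not overlap, and rose by 1.09 on 1449334_at (SE 0.05), 1.06 on 1419089_at (SE 0.07) and 0.84 on 1449335_at (SE 0.07), with adjusted p from 0.0141 to 0.0172 (limma). On 1449334_at the values by density were -0.042, -0.35 and -0.62 on the control arrays and 1.06, 0.81 and 0.41 on the MMP3 arrays. On 1419089_at they were -0.12, -0.39 and -0.57 on the control arrays and 0.95, 0.63 and 0.52 on the MMP3 arrays, and on 1449335_at -0.24, -0.35 and -0.56 on the control arrays and 0.59, 0.37 and 0.41 on the MMP3 arrays. In these 3 the densest MMP3 dish still lay above the sparsest control dish.

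Timp1, the inhibitor often raised by growth factors and cytokines, had 1 probe set. Its controls were at 0.139, -0.022 and -0.98 and its MMP3 arrays at 0.70, 0.47 and -0.095, in order of density. The groups overlapped, while each MMP3 array was above the control of its density. The difference of 0.64 (SE 0.13, 1.56-fold) did not pass (adjusted p = 0.0554, limma).

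Mmp2, the gelatinase A gene, fell on both of its probe sets. On 1439364_a_at the controls were at 0.13, 0.83 and 1.30 and the MMP3 arrays at -0.66, -1.29 and -1.22. The groups did not overlap, and the gap widened with density, from -0.79 at 50K to -2.12 at 100K and -2.52 at 250K. The mean was 0.75 ± 0.59 in the controls and -1.06 ± 0.35 with MMP3 (SD, n = 3 each). Over the 3 densities it fell by 1.81 (SE 0.17, adjusted p = 0.0197, limma), 3.50-fold. On 1416136_at the controls were at 0.46, 0.88 and 1.61 and the MMP3 arrays at -1.21, -0.65 and -0.25. Here the gap was even across density, at -1.67, -1.53 and -1.87, and the fall was 1.69 (SE 0.07, adjusted p = 0.0141, limma). The probe sets correlated with r = 0.876 over the 14 arrays.

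Mmp14, the membrane protease that activates proMMP-2, differed between its probe sets. On 1440920_at the controls were at 0.101, -0.101 and -0.54 and the MMP3 arrays at 1.45, 0.67 and 1.23, which did not overlap. The difference of 1.30 (SE 0.25) missed the threshold (adjusted p = 0.0517, limma). On 1448383_at the controls ran from -0.33 to -0.085 and the MMP3 arrays from 0.22 to 0.48, and the rise of 0.55 (SE 0.10) passed at adjusted p = 0.0473 (limma). Its values by density were -0.085, -0.33 and -0.22 on the control arrays and 0.31, 0.22 and 0.48 on the MMP3 arrays. On 1416572_at they were 0.52, -0.040 and -0.18 on the control arrays and 0.76, 0.67 and 0.00086 on the MMP3 arrays, so that these groups overlapped, and the difference was 0.38 (SE 0.14, adjusted p = 0.146, limma). Pairwise r over the 14 arrays was 0.470 to 0.836, the loosest agreement among the genes with several probe sets past the filter.

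Control and MMP3 arrays of experiment A did not overlap for 12 of the 15, against 42% of all tested probe sets. Of these 12, 10 were higher with MMP3 (16.7% of all tested) and 2 lower (25.2%). All 15 had the same sign in 3 of 3 densities. The calls rest on 2 residual degrees of freedom. When any 1 of the 6 arrays was left out, no probe set on the array passed, and the adjusted p of the 15 lay between 0.0645 and 0.283 (limma), with every sign kept.

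One of the RNA measures and some markers of cell identity moved with MMP3 in experiment A as well. For the Gapdh control probe sets, the 3′ value less the 5′ value ran from -0.027 to 0.030 on the control arrays and from 0.040 to 0.166 on the MMP3 arrays. For actin the same measure overlapped, from -0.049 to 0.110 and from -0.145 to 0.093. Among luminal markers 3 of 7 passed the filter and 2 rose (Epcam and Cdh1), and their mean lay between -0.35 and -0.34 on control arrays and between 0.32 and 0.46 on MMP3 arrays. Of the 6 basal markers 5 passed it, 1 rose (Krt17) and 2 fell (Krt5 and Trp63), with means of 0.21 to 0.39 and -0.30 to -0.046. The mean of the 4 macrophage markers past the filter, of 9, lay between 0.022 and 0.45 on control arrays and between -0.033 and -0.0035 on MMP3 arrays. None of them passed the test. Most of this came from Cd68, with a difference of -0.70 (SE 0.36), while Cd14 was at -0.135, Csf1r at -0.015 and Lyz2 at 0.016. For fibroblast markers (2 of 9 past the filter, none called) the means overlapped, at -0.24 to 1.07 and -0.50 to 0.155. The 1 adipocyte marker past the filter was not called either, and none of 5 endothelial markers passed the filter. The values hold no level, so which of these markers were absent cannot be read, and their part in the result was not tested.

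Slopes on plating density within experiment A were steepest for Mmp2, Timp3 and Timp1, and no probe set on the array passed for the slope (0 of 27022 with limma, 7287 at an unadjusted p under 0.05). Timp3 on 1419088_at had a slope of -0.42 per doubling of plated cells (SE 0.02, adjusted p = 0.115, limma), and it was lower at each step of density under both agents. Its other probe sets had smaller slopes, at -0.26 (1449334_at), -0.18 (1419089_at) and -0.107 (1449335_at). On 1449335_at the MMP3 arrays did not fall at each step, with 0.37 at 100K and 0.41 at 250K. Timp1 had a slope of -0.42 (SE 0.07, adjusted p = 0.115, limma), also downward at each step under both agents. Mmp2 on 1416136_at had a slope of 0.45 (SE 0.04, adjusted p = 0.115, limma) and was higher at each step under both agents. On 1439364_a_at its slope was 0.134 (SE 0.09), where the controls were higher at each step of density and the MMP3 arrays were lowest at 100K. For the Timp2 probe sets the slopes ran from -0.29 to 0.03, and for Mmp14 from -0.31 (1416572_at) to 0.017 (1448383_at).

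**Figure D3:**
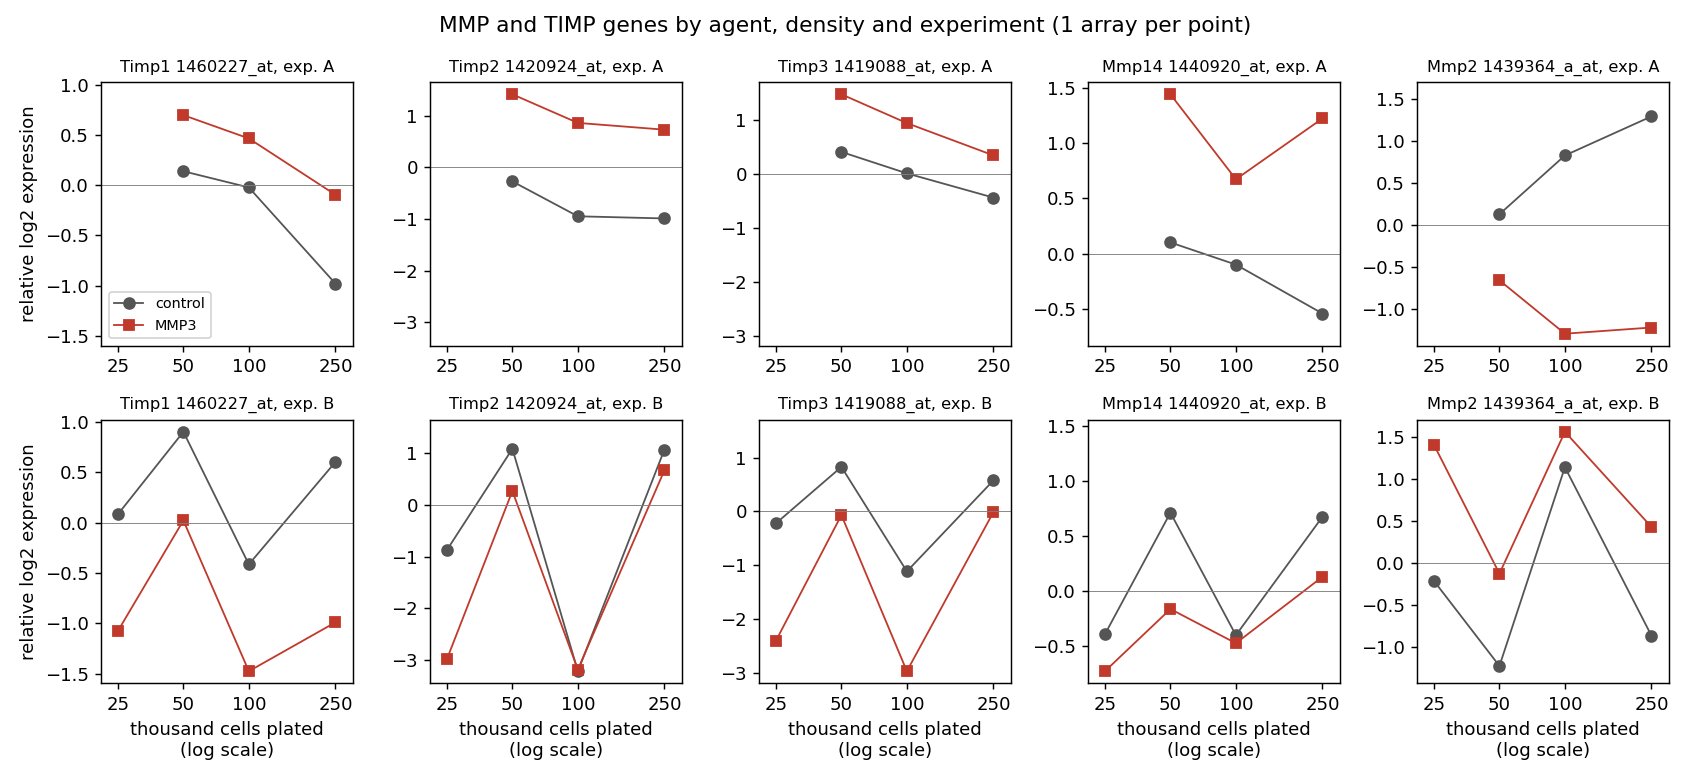
Relative log2 expression against cells plated per dish (K, log scale) for the probe set with the largest SD of each varying gene, experiment A above and B below, 1 array per point, with lines joining dishes of 1 agent. In A the MMP3 points lie above the control of the same density for Timp1, Timp2, Timp3 and Mmp14 and below it for Mmp2, while in B the points at 50K and 250K lie apart from those at 25K and 100K under both labels for Timp2, Timp3, Mmp14 and Mmp2, and the MMP3 point of Timp1 at 250K lies near that at 25K.

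Experiment B, as labelled, did not repeat this. No probe set on the array passed for MMP3 (0 of 27022 with limma, 2864 at an unadjusted p under 0.05), so none of the 15 did. Control and MMP3 arrays of B overlapped for all 15, where 9.26% of tested probe sets did not. The difference was opposite in sign to that of A for all 15, and for 58.4% of all tested probe sets. Timp1 had the smallest unadjusted p, with a difference of -1.17 (SE 0.45, unadjusted p = 0.0451 and adjusted p = 0.462, limma).

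The single arrays of B show how the values were arranged. Timp2 on 1420924_at was at -0.87, 1.09, -3.22 and 1.07 on the arrays labelled control 25K, 50K, 100K and 250K. On those labelled MMP3 it was at -2.99, 0.27, -3.19 and 0.67 in the same order. The high arrays were the 50K and 250K dishes of both labels and the low ones the 25K and 100K dishes, and the same 4 arrays were the high ones in Ifit1. The arrays labelled control 100K, MMP3 25K and MMP3 100K were near -3 on this probe set. On 1450040_at the same 3 arrays ran from -1.83 to -0.82, and on 1460287_at from -1.24 to -0.50.

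The other Timp2 probe sets had the same arrangement of B. From 25K to 250K, 1450040_at was at -0.59, 0.86, -0.82 and 0.64 on the control arrays and -1.13, 0.43, -1.83 and 0.96 on the MMP3 arrays. On 1454677_at the values were -0.62, 0.68, -0.68 and 0.55 on the control arrays and -0.99, 0.45, -1.27 and 0.83 on the MMP3 arrays. All 4 values at 50K and 250K were above 0 on both, and the other 4 below 0. On 1433662_s_at they were -0.62, 0.55, -0.56 and 0.50 on the control arrays and -0.76, 0.43, -1.31 and 0.91 on the MMP3 arrays, and on 1460287_at -0.22, 0.32, -0.50 and 0.38 on the control arrays and -1.02, 0.25, -1.24 and 0.22 on the MMP3 arrays, with the same split about 0.

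Timp3 on 1419088_at was at -0.22, 0.83, -1.11 and 0.58 on the control arrays and at -2.39, -0.066, -2.96 and -0.0115 on the MMP3 arrays of B. It was lower on the MMP3 array at each density, with differences of -2.18, -0.89, -1.85 and -0.59 from 25K to 250K. On 1419089_at the values were -0.46, 0.38, -0.58 and 0.31 on the control arrays and -0.88, 0.12, -2.54 and 0.51 on the MMP3 arrays, and on 1449334_at -0.41, 0.49, -0.77 and 0.40 on the control arrays and -1.39, 0.042, -2.13 and 0.17 on the MMP3 arrays. The lowest array was MMP3 100K on all 4 probe sets. Its actin 3′ less 5′ value was also the highest of the 14, at 0.654 against -0.34 to 0.192 on the others, and the part of this in the result was not tested. On 1449335_at only the array labelled MMP3 100K stood far off, at -2.35, and the other 7 arrays lay between -0.63 and 0.54.

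Timp1 in B was at 0.083, 0.90, -0.41 and 0.60 on the control arrays and at -1.08, 0.022, -1.48 and -0.99 on the MMP3 arrays. It was lower under MMP3 at each of the 4 densities, with differences of -1.60 to -0.88, where in A it was higher at each of 3. On the array labelled MMP3 250K, Timp1 and Timp2 went apart, Timp1 at -0.99 and the 5 varying Timp2 probe sets between 0.22 and 0.96.

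Mmp2 on 1439364_a_at was at -0.22, -1.23, 1.14 and -0.87 on the control arrays of B and at 1.40, -0.131, 1.56 and 0.43 on the MMP3 arrays. Both of its probe sets were higher under MMP3 at all 4 densities, where in A both were lower at all 3. On 1416136_at the values were 0.037, -0.62, 0.37 and -0.71 on the control arrays and 0.90, -0.037, 1.55 and -0.058 on the MMP3 arrays. The differences over B were 1.11 (SE 0.69, adjusted p = 0.628, limma) and 0.82 on 1416136_at (SE 0.48, adjusted p = 0.608, limma). Mmp14 on 1440920_at was at -0.39, 0.71, -0.40 and 0.67 and at -0.73, -0.16, -0.47 and 0.129, in the same order, with a difference of -0.46 (SE 0.33, adjusted p = 0.665, limma). The probe set 1416572_at of Mmp14, which ran from -0.18 to 0.76 in A, stayed within -0.122 and 0.145 in B. On 1448383_at the values of B were -0.34, 0.085, -0.50 and 0.088 on the control arrays and -0.28, 0.10, -0.72 and 0.10 on the MMP3 arrays, with the lowest again on the array labelled MMP3 100K.

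**Figure D4:**
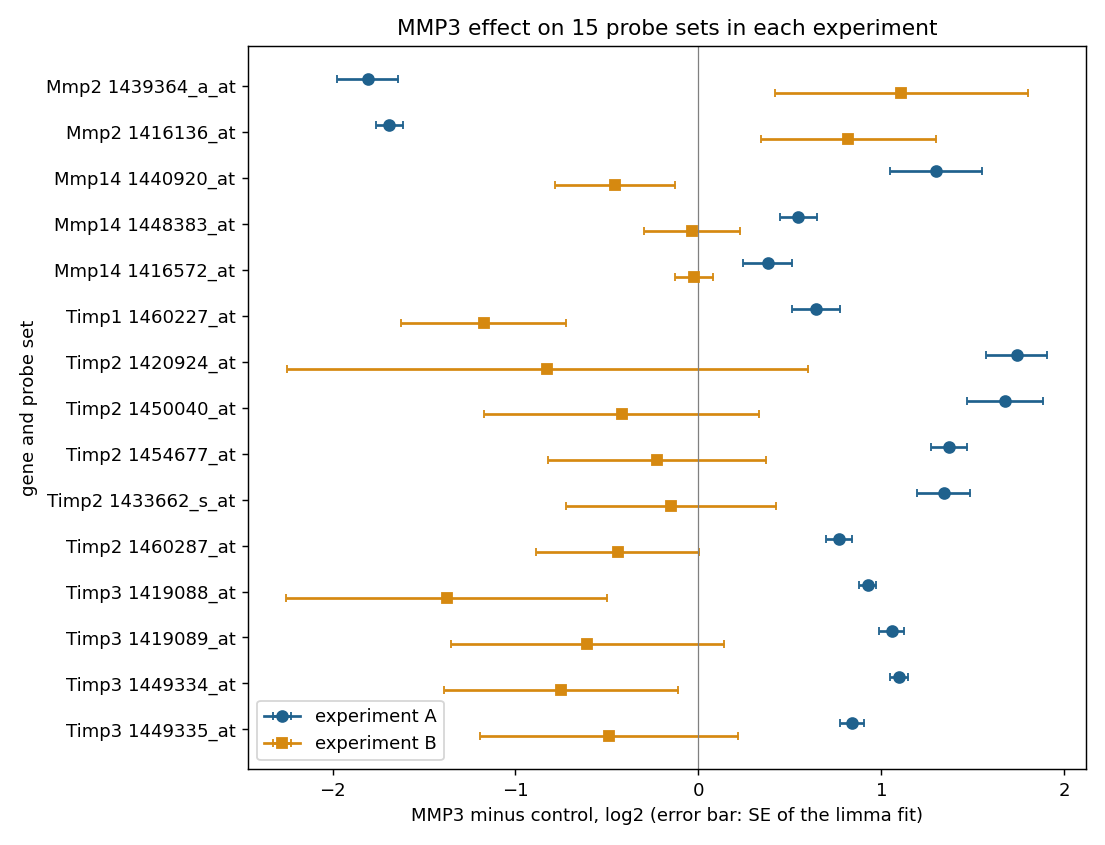
MMP3 minus control on the log2 scale for the 15 tested probe sets in experiment A (circles) and experiment B as labelled (squares), with the SE of the limma fit as error bars. The sign differs between the experiments for each of the 15, and the error bars are wider in B for all but 1416572_at of Mmp14.

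Of the 15, 7 were one way in all 3 pairs of A and the other way in all 4 pairs of B, against 13% of all tested probe sets. None was the same way in all 7 pairs, which 7.55% of tested probe sets were. How far the MMP3 effect itself differed from A to B was fitted on the 12 arrays of the shared densities, and no probe set passed (0 of 27022 with limma, 3396 at an unadjusted p under 0.05). Among the members it was 2.49 on 1416136_at (SE 0.71) and 2.75 on 1439364_a_at (SE 0.93) for Mmp2, B minus A, and -1.82 (SE 0.57) for Timp1, all at adjusted p = 0.396 (limma). Each of the 12 arrays was also left out in turn, with only the probe set of largest SD per gene followed among the members. Without the control 100K array of B, 556 probe sets passed, 2.06% of those tested. Among them were Mmp2 on 1439364_a_at (3.48, adjusted p = 0.0499, limma) and Mmp14 on 1440920_at (-2.16, adjusted p = 0.0414, limma). With any of the other 11 arrays left out, 0 passed. Leaving out the 4 arrays whose Ifit1 goes against the label keeps the controls of B at 25K and 100K and the MMP3 dishes at 50K and 250K, so that agent and density are no longer matched. These arrays were picked by a measured gene whose direction was taken from A. A sign like that of A is therefore no separate support for A, and the values have no test. By the means of the kept arrays (2 each), on the probe set with the largest SD per gene, MMP3 minus control was then 2.52 for Timp2, 0.63 for Timp3, 0.38 for Mmp14 and -0.31 for Mmp2, each with the sign of A. For Timp1 it was -0.32, which kept the sign of B. With a density term in the fit the values were 2.99 for Timp2, 0.83 for Timp3, 0.30 for Mmp14, -0.81 for Mmp2 and 0.095 for Timp1, so the sign for Timp1 depends on that term.

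Over all 14 arrays none of the 15 passed, where 2.18% of tested probe sets did, 0.999% higher and 1.18% lower. The differences lay between -0.40 (Timp1) and 0.49 (Timp2 on 1433662_s_at), with adjusted p from 0.644 to 0.982 (limma). Without the 4 arrays the same fit gave 2.18 for Timp2 (0.27 with them), 0.95 for Timp3 (-0.39), -1.37 for Mmp2 (-0.14), 0.98 for Mmp14 (0.29) and 0.45 for Timp1 (-0.40), with no test. The plain means of the 10 kept arrays differed by 2.05, 0.81, -1.21, 0.93 and 0.26 in the same order. No probe set passed for the density slope over all arrays (0 with limma, 2853 at an unadjusted p under 0.05) or in B (0 with limma, 971 at an unadjusted p under 0.05).

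Set out by condition, the means over both experiments were compared between neighbours in their order, and most neighbours were not apart. Timp2 on 1420924_at had means of 0.84 (MMP3 50K), 0.70 (MMP3 250K), 0.41 (control 50K), 0.042 (control 250K), -1.16 (MMP3 100K) and -2.08 (control 100K), with -0.87 and -2.99 on the single control and MMP3 arrays at 25K. The arrays of a condition lay 0.030 to 2.03 either side of their mean, and none of the 5 neighbours in that order was apart from the next. The same count was 0 of 5 for Mmp2, Timp1 and Mmp14. For Timp3 on 1419088_at it was 1 of 5, control 50K above MMP3 250K. Conditions that are not neighbours are outside this count and could be apart. For Timp2 on 1420924_at the MMP3 250K arrays lay 0.030 either side of 0.70. The control 100K arrays lay 1.14 either side of -2.08.

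Other genes of the system were read from lists, with each gene represented by its probe set of largest SD. In experiment A 13.8% of the 11812 genes so represented were higher and 9.67% lower with MMP3 at adjusted p under 0.05 (limma, adjusted over all probe sets), with a median of -0.02. Of 17 other genes of the family, Timp4 among them, 12 had a probe set, 6 passed the filter and none was called. The 6 were Mmp11, Mmp16, Mmp17, Mmp19, Mmp23 and Mmp24, with a median difference of 0.03. Mmp1a, Mmp1b, Mmp7, Mmp8, Mmp20 and Timp4 lay below the filter, at SDs of 0.0126 to 0.027. Of these, Mmp1a (0.022), Mmp1b (0.017) and Mmp8 (0.0126) lie beside the 4 flat members on chromosome 9.

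Of the activators, surface partners and other inhibitors 16 of 24 genes were tested, and 5 rose and 1 fell, with a median of 0.27. Plau, the urokinase gene, rose by 1.94 (SE 0.05, adjusted p = 0.0141, limma) and its receptor gene Plaur by 1.79 (SE 0.34, adjusted p = 0.0493, limma). St14, which encodes the membrane protease matriptase, rose by 1.77 and Cd44, a surface receptor that can dock MMPs, by 0.97. The other one to rise was Plat, the tissue plasminogen activator gene (0.54), and Cav1, for caveolin-1, fell by 0.46. Of the AP-1, ETS and Runx2 factors 11 of 14 were tested, with 1 up and 1 down, Ets1 (0.75, SE 0.08) and Ets2 (-0.68, SE 0.08), and a median of 0.09.

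Of the genes for proteins that MMP-3 is known to cut, 8 of 14 were tested, and 4 rose and 1 fell, with a median of 0.81. Hbegf, for a growth factor shed from the surface, rose by 2.88 (SE 0.44), Hspg2, for the basement membrane proteoglycan perlecan, by 0.90 (SE 0.11), Cdh1, for E-cadherin, by 0.89 (SE 0.06), and Sparc, for a matrix glycoprotein, by 0.72 (SE 0.13). Igfbp3, for a binder of insulin-like growth factors, fell by 2.26 (SE 0.13). No gene of these lists was called in experiment B, where 0 of the 27022 tested probe sets were. Of the 13 genes of the 4 lists called in A, 9 had the opposite sign in B, such as Plau (-1.16), Plaur (-1.79), Ets1 (-1.03) and Hbegf (-2.27). Over all tested probe sets, called in A or not, 58.4% had the opposite sign. The other 4 of the 13 kept their sign, namely Plat (0.23), Ets2 (-0.107), Igfbp3 (-0.26) and Sparc (0.080).

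The genes most like each varying member over the 14 arrays were taken by Pearson r among 11196 other genes. For Timp2 they were Macc1 (r = 0.951), Pitpna (0.950) and Dapp1 (0.950), for Timp3 Id3 (0.963), Ddx54 (0.960) and Baz2b (0.960), and for Timp1 Ldlrad4 (0.987), Depdc7 (0.981) and Iffo2 (0.980). For Mmp2 they were Asrgl1 (0.972), Vldlr (0.955) and Gmds (0.952), and for Mmp14 Orai1 (0.953), Mapre1 (0.950) and Uvrag (0.943). All share the same 14 arrays. In all, 178 genes had r above 0.9 with Timp1, 143 with Timp3, 95 with Timp2, 89 with Mmp2 and 29 with Mmp14. The lists are a description and carry no test.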

How the data were processed

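RNA of 14 dishes was measured on Affymetrix mouse expression arrays from 200 ng of total RNA, per the labels. The deposited table holds log2 values that the authors made with RMA, per the submitters' processing notes, whose version is not given in the sources used here. Each of the 45101 probe sets had a median of 0 within 5e-07, a centring seen in the values. The log base is not stated, and log2, the base RMA gives, was assumed for folds.

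Probe sets were named through GEO's platform annotation (34945 with 1 symbol, 932 with several, 9160 with none, 64 controls), with symbols updated through the Entrez identifier. Members, lists and tests were chosen with earlier results of these data known. Probe sets with an SD over the 14 arrays at or above the 40th percentile (0.049) were tested with limma 3.58.1 in R 4.3.3 (lmFit, eBayes, Benjamini-Hochberg, threshold 0.05). The filter uses all arrays and no labels. Terms were agent, centred log2 density and their product, plus experiment as a block over all arrays; the difference between experiments was fitted with agent, experiment, their product and density. Residual degrees of freedom were 2 in A, 4 in B, 9 over all and 7 for the difference between experiments. The fits were tried on simulated data with independent noise and large planted shifts. That setting held no array against its label and no unequal spread between arrays, so it does not cover those features of B. The letters A and B mark separate experiments, per the labels, which is where the replicate block comes from. Deviations from group means correlated at 0.052 on average between arrays of 1 experiment (-0.65 to 0.64). Each group used for this held 1 array of A and 1 of B, so the deviations of B mirror those of A. Some of these arrays also go against their label. The mean therefore cannot show whether dishes of an experiment share variation. Named genes were all 10 members, up to 4 called genes per list with the largest difference, genes outside that rule named after their values were seen (Plat, Cav1, Sparc, the called markers and the other MMPs), and the 3 most correlated genes per member. Promoter letters are from RefSeq, GRCm38.p6.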

Additional observations from a re-analysis of the deposited data

Results flagged for a closer look

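For 7 of the 15 tested probe sets every pair of experiment A moved one way and every pair of experiment B, as labelled, the other way. The difference in the MMP3 effect, B minus A, was 2.49 and 2.75 for Mmp2 (1416136_at and 1439364_a_at), -1.82 for Timp1, -1.80 for Mmp14 (1440920_at), -2.04 and -1.77 for Timp3 (1419088_at and 1449334_at) and -1.09 for Timp2 (1460287_at). The fitted difference passed for none of them (adjusted p from 0.396 to 0.435, limma). The same pattern was seen in 13% of all tested probe sets. For Timp3 on 1419088_at the difference was -1.05 without the MMP3 100K array of B and -2.81 without the MMP3 250K array of B.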

How the results depend on the processing

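In experiment A the 15 member differences kept their sign under each alternative run, but most of these runs could not change it. The difference itself was the same without the filter or the product term and with density as a factor. The same held with robust eBayes or 1 probe set per gene. Only the SE or the p-values changed there. Averaging within a gene joined tested probe sets that already shared a sign. The sign was open to change only when an array was left out, and it was kept in those runs. Without the filter on spread 6 of the 12 calls were lost (4 on Timp2, 1 each on Mmp2 and Mmp14, adjusted p from 0.0501 to 0.119, limma), with density as a factor Mmp2 on 1439364_a_at (adjusted p = 0.0905, limma), and with robust eBayes Mmp14 on 1448383_at (adjusted p = 0.0554, limma). Timp1 and Mmp14 on 1440920_at passed with 1 probe set per gene and without the product term. Mmp14 on the mean of its probe sets rose by 0.74 (adjusted p = 0.0161, limma), and Timp1 passed there too (adjusted p = 0.0348, limma). The count of calls in A was 5379 of 27022 tested (19.9%), 1853 of 45037 without the filter (4.11%), 2960 of 11812 with 1 probe set per gene (25.1%), 3145 of 27022 with density as a factor (11.6%) and 0 to 0 with an array left out. Over all arrays it was 589, and 279 without the filter (0.619% of 45037), 325 with 1 probe set per gene (2.75% of 11812), 0 with no replicate block, 3 with each matched pair as the replicate block, and 0 to 2284 with an array left out, with 2284 without MMP3 100K of B, 1301 without control 50K of B, 1106 without control 250K of A and 539 without MMP3 100K of A. The count for the difference between experiments was 0 to 556 (2.06% of 27022) with an array left out, the highest without control 100K of B. Of the 5 member probe sets refitted over all arrays, those of largest SD per gene, none was called with or without the replicate block. No probe set on the array was called without it, so these calls cannot show how the members depend on the block. The cause of the changes in the counts was not tested.

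Without the 4 arrays against their label the fit with a density term gave, for B, 2.99 (Timp2), 0.83 (Timp3), 0.095 (Timp1), 0.30 (Mmp14) and -0.81 (Mmp2), and over all arrays 2.18, 0.95, 0.45, 0.98 and -1.37. The difference of group means, chosen after seeing the data, gave 2.52, 0.63, -0.32, 0.38 and -0.31 for B and 2.05, 0.81, 0.26, 0.93 and -1.21 over all arrays, so Timp1 in B changes sign with the density term. The slopes without them were, in the same order, -0.40, -0.176, -0.36, 0.070 and 0.43 for B and -0.27, -0.31, -0.42, -0.114 and 0.34 over all arrays. Leaving out single arrays turned some values that were not called. Over all arrays MMP3 differences ran from -0.47 to 0.136 (Mmp2) and from -0.137 to 0.73 (Timp2), and slopes from -0.133 to 0.32 (Mmp2), -0.189 to 0.39 (Timp2), -0.22 to 0.175 (Timp3) and -0.095 to 0.187 (Mmp14). In B slopes ran from -0.131 to 0.28 (Mmp2), -0.22 to 0.61 (Timp2), -0.107 to 0.35 (Timp3) and -0.179 to 0.022 (Timp1), and in A from -0.53 to 0.068 (Mmp14) and -0.071 to 0.27 (Mmp2). The Mmp2 slope over all arrays was 0.024 on the mean of its probe sets. No scanner files were used, so signal over background is unknown.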
